A study of Mus musculus with 2 samples.

Results

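The genes described here are 10 sources of NADPH in the mouse adrenal gland. They were taken by symbol from a list that uses no measured value: Nnt, Me2, Me3, Idh2 and Glud1, whose enzymes work in mitochondria, and G6pdx, Pgd, Me1, Idh1 and Mthfd1, whose enzymes work in the cytosol. That list was chosen with earlier results of these data known. All 10 symbols were found among 55341 symbols. They held 11 of 55450 gene identifiers, because Nnt has 2, and 56 of 141767 annotated transcripts. Every member had a mean of 100 or more counts.

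Total RNA from whole adrenal gland of B6CASTF1/J males aged 2 months, a first-generation hybrid with a C57BL/6J and a CAST parent, was measured in 2 libraries of 1 group. Each library started from 300 ng of RNA, with ribosomal RNA reduced, ERCC spike-in RNAs added and a directional kit that keeps the strand. The labels call the libraries biological replicates, but they give 2 animal numbers in the sample descriptions and only 1 in the library descriptions and donor field, so that there were 2 animals rests on the sample descriptions. There was no second condition, and with 1 library against 1 library no p-value was computed. The spread between the libraries may be technical.

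Expected counts per library came to 36512736 and 34454892 for replicates 1 and 2. The libraries differed beyond sampling noise, with a chi-square of 43.9 per gene. The tissue label was checked against marker genes. The 8 cortex markers summed to 14864 and 16476 TPM (transcripts per 1000000 transcripts, a level per transcript length) in replicates 1 and 2, and the 8 chromaffin markers of the medulla to 2148 and 1895 TPM. All 8 of each list were above 1 TPM in both libraries. Fat was also present: 8 white adipocyte markers summed to 3708 and 2934 TPM, and 6 brown adipocyte markers to 1405 and 714 TPM.

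NADPH is the reduced cofactor that supplies electrons for biosynthesis and for the defence against peroxides. In the adrenal cortex it has a further use: the mitochondrial steroid-making P450 enzymes receive electrons from NADPH through the reductase encoded by Fdxr and its ferredoxin partner. NADPH does not cross the inner mitochondrial membrane, so each compartment has sources of its own. Nnt, the nicotinamide nucleotide transhydrogenase, sits in that membrane and uses the proton gradient to reduce NADP with NADH. C57BL/6J mice are known for a deletion inside Nnt that removes a run of internal exons and leaves the strain without the working enzyme.

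Nnt lies on chromosome 13 from 119335448 to 119408997, minus strand, in GRCm38. That reference genome is itself from C57BL/6J, so exons that are missing from it have no value here, and the Nnt genotype of the animals and the parental origin of the reads were not measured. The described deletion falls in the intron between exons 6 and 7 of the annotated transcript Nnt-202, which is 4715 bases long in this build. Nnt-202 has 17 exons, 3464 bases and an open reading frame of 835 codons. Nnt-201 has 15 exons and 721 codons. It lacks exons 8 and 9 of Nnt-202, 342 bases or 114 codons. The following exon joints show these differences, with the last 30 bases of the exon before in lower case and the first 30 bases of the exon after in capitals, 5′ to 3′ on the minus strand, from the GENCODE M21 transcripts.
Nnt-202 exons 6 and 7: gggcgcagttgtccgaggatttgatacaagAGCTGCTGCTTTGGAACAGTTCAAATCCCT
Nnt-202 exons 7 and 8: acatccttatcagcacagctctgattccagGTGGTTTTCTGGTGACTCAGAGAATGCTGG
Nnt-202 exons 9 and 10: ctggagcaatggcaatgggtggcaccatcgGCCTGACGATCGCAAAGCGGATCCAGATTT
Nnt-201 joint of exons 7 and 10: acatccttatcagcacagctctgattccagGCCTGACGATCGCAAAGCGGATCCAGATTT

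The joint of exons 6 and 7, from exon 6 at chr13:119386579-119386667 to exon 7 at chr13:119381676-119381863, is shared by the 4 annotated protein-coding transcripts Nnt-201, Nnt-202, Nnt-203 and Nnt-206. It is the place where the reference reads straight across the described deletion. The joints of exons 7 and 8 and of exons 9 and 10 are shared by Nnt-202, Nnt-203 and Nnt-206. Exon 8 lies at chr13:119374629-119374774, exon 9 at chr13:119372396-119372591 and exon 10 at chr13:119369912-119370145. The joint of exons 7 and 10 is in Nnt-201 alone.

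**Figure D1:**
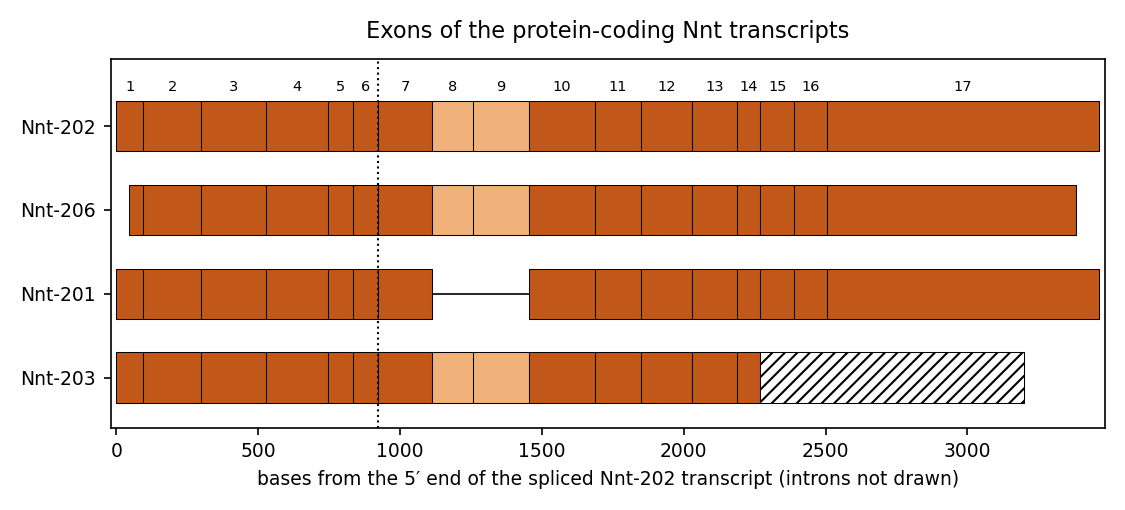
Exons of the 4 protein-coding Nnt transcripts as boxes to scale, against bases from the 5′ end of spliced Nnt-202 with its exon numbers on top and introns not drawn. Nnt-201 lacks exons 8 and 9 (pale), Nnt-206 has all 17 exons with shorter ends, Nnt-203 runs on into intron sequence after exon 14 (hatched), and the dotted line marks the joint of exons 6 and 7.

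The 10 genes spanned a wide range of levels, and cytosolic Me1 stood far above all others. Me1, the cytosolic malic enzyme that makes NADPH while turning malate into pyruvate, reached 466 TPM in the library of replicate 1 and 543 TPM in that of replicate 2, with a mean of 505 ± 54.6 TPM (SD, n = 2). It ranked 36 among 21911 nuclear protein-coding genes, above 99.8% of them. Idh1, the cytosolic NADP-dependent isocitrate dehydrogenase, had 164 and 176 TPM, a mean of 170 ± 8.60 TPM. The 2 libraries of Me1 lay above both of Idh1, and its mean was 2.97 times as high.

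The pair of the oxidative pentose phosphate pathway stood close together. Pgd, the 6-phosphogluconate dehydrogenase, had 65.1 and 67.8 TPM, a mean of 66.4 ± 1.90 TPM. G6pdx, the X-linked glucose-6-phosphate dehydrogenase that opens the pathway, had 48.8 and 50.0 TPM, a mean of 49.4 ± 0.834 TPM. Both genes were steady between the libraries, and Pgd was the higher in each. Mthfd1, the cytosolic enzyme of folate metabolism whose dehydrogenase step reduces NADP, was the lowest cytosolic member, with 12.1 and 11.8 TPM and a mean of 11.9 ± 0.240 TPM.

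Among the mitochondrial members, Glud1 and Idh2 stood highest, followed by Nnt. Glud1, the glutamate dehydrogenase that can use NAD or NADP, had 72.1 and 64.3 TPM, a mean of 68.2 ± 5.48 TPM. Of this, 23.2 and 16.7 TPM lay on Glud1-205, a transcript of 432 bases with 300 and 201 expected counts. The transcript Glud1-201, of 3390 bases, had 48.1 and 46.7 TPM, below the 55.9 and 53.4 TPM of Idh2-201. The place of Glud1 above Idh2 in alignment-based TPM thus rests on that short transcript. Read-based TPM also put Glud1 above Idh2, at 147 and 137 TPM, but with 1.37 and 0.787 TPM on Glud1-205. There 65.6 and 53.5 TPM lay on Glud1-202, a transcript of 699 bases with 0 expected counts by alignment. Idh2, the mitochondrial NADP-dependent isocitrate dehydrogenase, had 57.9 and 55.7 TPM, a mean of 56.8 ± 1.51 TPM. Nnt had 2844 and 2729 expected counts, 23.1 and 23.7 TPM, a mean of 23.4 ± 0.445 TPM. Its rank was 2595, above 88.2% of nuclear protein-coding genes. In alignment-based TPM its libraries lay closer together than those of Glud1 or Idh2. In the read-based quantification of the same reads, Idh2 at 101 and 103 TPM lay closer together than Nnt at 38.4 and 41.6 TPM.

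The mitochondrial malic enzymes were the lowest members. Me2, which mainly reduces NAD, had 8.18 and 8.28 TPM, a mean of 8.23 ± 0.0707 TPM. Me3, the NADP-dependent form, had 4.04 and 2.35 TPM. Me2 lay above Me3 in both libraries. In the order of the means, Me1, Idh1, Glud1, Pgd, Idh2, G6pdx, Nnt, Mthfd1, Me2 and Me3, the library values of each gene lay apart from those of its neighbours except for Glud1 and Pgd, which overlapped. A level of 10 TPM in both libraries was reached by 8 of the 10, all but Me2 and Me3. By mean TPM, Mthfd1, the lowest of the 8, stood above 76.7% of nuclear protein-coding genes, and Me2, just under the level, above 69.8%. The share of all genes that reached the level was not computed on any scale, so the count of members has no background. TPM depends on what it is divided over: taken over nuclear protein-coding genes alone, the mean was 77.9 for Nnt and 1677 for Me1, and with that scale or read-based TPM 9 of the 10 reached the level, Me2 included.

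**Figure D2:**
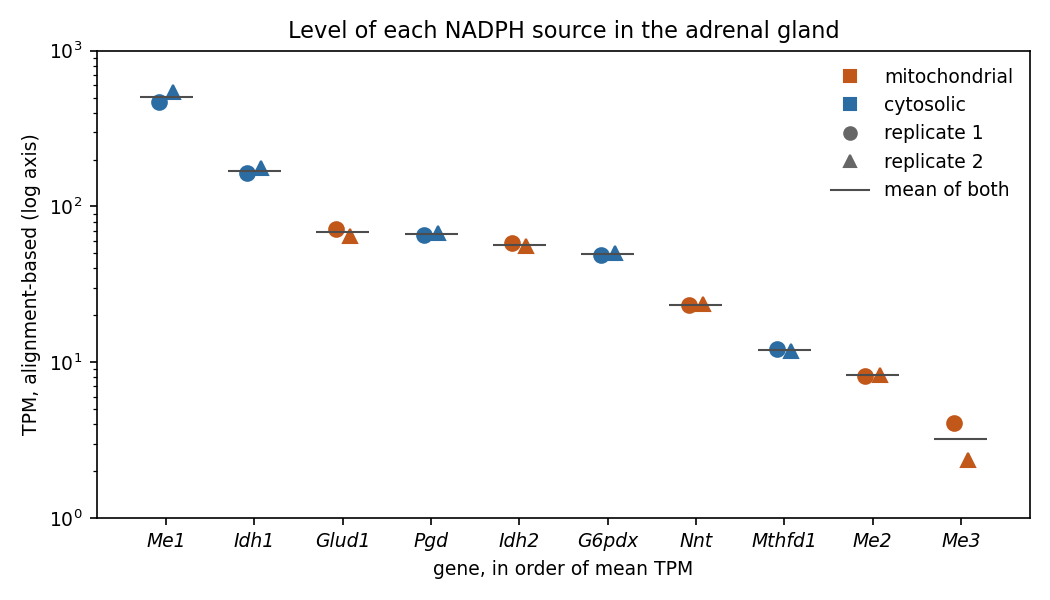
Alignment-based TPM of the 10 genes on a log axis, ordered by mean, with circles for replicate 1, triangles for replicate 2, a line at their mean and a colour for each compartment. Me1 stands highest at 466 and 543 TPM, Glud1 and Pgd overlap, and Me3 shows the widest gap between its libraries.

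Cytosolic transcripts made up most of the summed level. The 5 cytosolic members summed to 756 and 849 TPM in replicates 1 and 2, a mean of 803 ± 65.7 TPM (SD, n = 2). The 5 mitochondrial members summed to 165 and 154 TPM, a mean of 160 ± 7.67 TPM. The cytosolic sum was therefore 4.57 and 5.50 times the mitochondrial one, and the mitochondrial members held 17.9% and 15.4% of the total. The groups lay far apart in each library.

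Me1 accounted for most of that distance, with 61.7% and 64.0% of the cytosolic sum and 50.6% and 54.2% of all 10 genes. Without Me1 the cytosolic sum was 1.75 and 1.98 times the mitochondrial one. On the mitochondrial side no gene held a majority. Glud1 held 43.6% and 41.6% of the mitochondrial sum, Idh2 35.0% and 36.1%, and Nnt 14.0% and 15.4%. Nnt was 2.51% and 2.37% of the summed TPM of all 10. These are shares of transcripts and give no NADPH flux or protein amount.

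**Figure D3:**
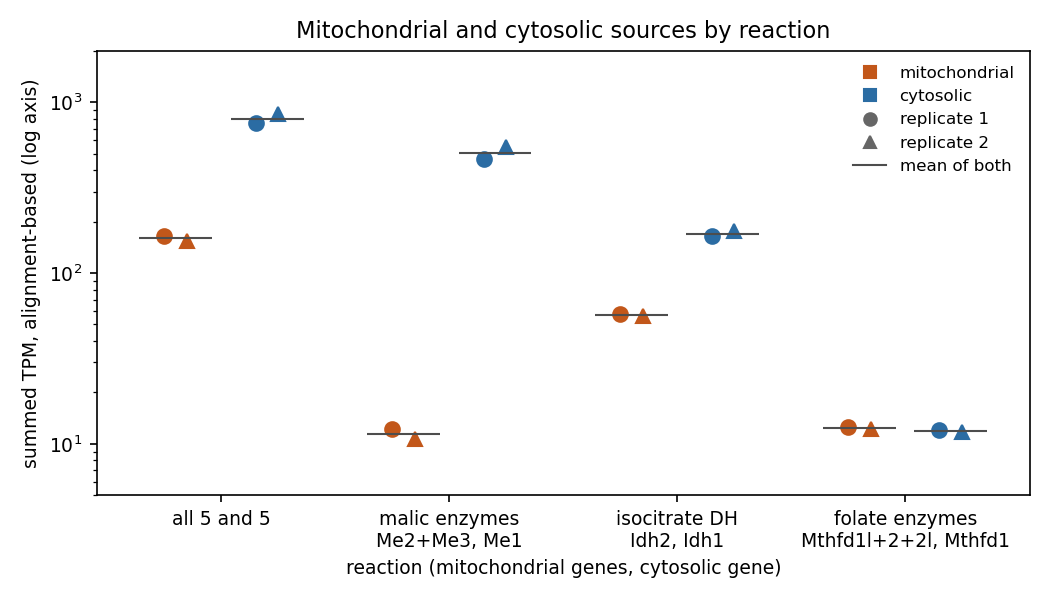
Summed alignment-based TPM on a log axis of mitochondrial and cytosolic genes, for all 5 and 5 members and for 3 reactions, with circles for replicate 1, triangles for replicate 2 and a line at their mean. The gap is widest for the malic enzymes, where Me1 is 38.1 and 51.1 times as high as Me2 and Me3 summed, and the folate enzymes lie level at about 12 TPM.

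Pairs of enzymes that carry out a like reaction in both compartments differed in how uneven they were. For the malic enzymes, Me1 stood 38.1 and 51.1 times as high as Me2 and Me3 summed, which had 12.2 and 10.6 TPM. For the NADP-dependent isocitrate dehydrogenases, Idh1 stood 2.83 and 3.16 times as high as Idh2. For folate metabolism the balance was near even in alignment-based TPM. The mitochondrial Mthfd1l, Mthfd2 and Mthfd2l summed to 12.6 and 12.2 TPM against 12.1 and 11.8 TPM for cytosolic Mthfd1. Mthfd1l has no dehydrogenase activity of its own, and it held 1.55 and 1.72 TPM of that sum. In read-based TPM the mitochondrial sum was the higher, at 26.9 and 28.6 TPM, 1.32 and 1.41 times the level of Mthfd1. The pentose phosphate pair G6pdx and Pgd summed to 114 and 118 TPM, 4.93 and 4.96 times the level of Nnt.

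Of the genes that use mitochondrial NADPH or make its NADP, Fdxr stood far above Nnt in alignment-based TPM. Txnrd2, Gsr and mitochondrial Nadk2 lay near or below Nnt. Fdxr, the reductase of steroid synthesis, had 427 and 479 TPM, 18.5 and 20.2 times the level of Nnt. Txnrd2, the mitochondrial thioredoxin reductase, had 21.2 and 22.6 TPM against 23.1 and 23.7 for Nnt. By the read-based method, which quantifies the same reads another way, the order turned in both libraries, with 41.6 and 45.7 TPM for Txnrd2 against 38.4 and 41.6 for Nnt. Gsr, the glutathione reductase of cytosol and mitochondria, had 17.8 and 21.6 TPM. The NAD kinases make the NADP that the NADPH sources reduce: mitochondrial Nadk2 had 16.3 and 19.0 TPM and cytosolic Nadk 53.2 and 57.4 TPM.

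The close relatives of the members were present at unlike levels. H6pd, the counterpart of G6pdx and the lactonase in the endoplasmic reticulum, had 57.2 and 54.2 TPM, beside 48.8 and 50.0 TPM for G6pdx. G6pd2, an autosomal copy of G6pdx known from the testis, had 0 counts in both libraries. The subunits Idh3a, Idh3b and Idh3g of the NAD-linked isocitrate dehydrogenase, which makes NADH and no NADPH, summed to 437 and 318 TPM, 7.54 and 5.71 times the level of Idh2. Further along the pentose phosphate pathway Tkt had 213 and 208 TPM and Taldo1 203 and 202 TPM, both above Pgd and G6pdx. Acly, the cytosolic citrate lyase whose oxaloacetate product can become the malate used by Me1, had 361 and 427 TPM.

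Counts of replicate 2 were set against replicate 1 to see which members varied. A gene was called at more than 1.5-fold in counts scaled by the TMM method, which sets library sizes from most genes. Of the 10 members 1 passed, Me3. Across all 12411 genes tested, 328 or 2.64% passed, 153 higher and 175 lower in replicate 2. With total-count scaling the split was 224 higher and 115 lower, and with the TPM ratio 339 higher and 141 lower. With only 10 members, 1 call is a count too small to set against that share.

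Me3 had 228 and 118 expected counts, a log2 ratio of replicate 2 over replicate 1 of -0.94 (95% Clopper-Pearson counting interval -1.28 to -0.62), or 1.92-fold lower in replicate 2. Intervals here cover counting error only. The ratio was -0.91 in the read-based tables. The interval of Nnt included 0, at -0.05 (-0.13 to 0.02), as did those of G6pdx at -0.04, Pgd at -0.04, Mthfd1 at -0.08 and Me2 at 0.06.

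Glud1 and Idh2 lay slightly below 0, each at -0.15, with intervals of -0.21 to -0.10 and -0.22 to -0.08. Me1 at 0.09 (0.07 to 0.11) and Idh1 at 0.05 (0.02 to 0.09) lay slightly above. The mitochondrial members had a median of -0.15, with 4 of 5 below 0, and the cytosolic members a median of -0.04, with 3 of 5 below 0. The median of all genes tested was -0.007. With total-count scaling it was 0.069 and 4 of 5 cytosolic members and 2 of 5 mitochondrial members lay above 0, so directions this close to 0 depend on the scaling. With that scaling Nnt was at 0.02 and Me3 at -0.86.

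Fat and blood markers moved with Me3. Over the brown adipocyte markers the median was -0.92, and 5 of 6 were called lower, all but Ppargc1a; none of the 6 was at 0 TPM. Ucp1, the uncoupling protein of brown fat, had 629 and 303 TPM. White adipocyte markers lay at a median of -0.50, 8 of 8 below 0 and 1 called, and red cell markers at a median of -0.76, 4 of 4 tested called lower, with sums of 1436 and 867 TPM. Chromaffin markers had a median of -0.26 and cortex markers of 0.05, with none called. The part of these cells in the ratio of Me3 was not tested. In bulk tissue fewer cells of a type and less RNA per cell cannot be told apart.

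**Figure D4:**
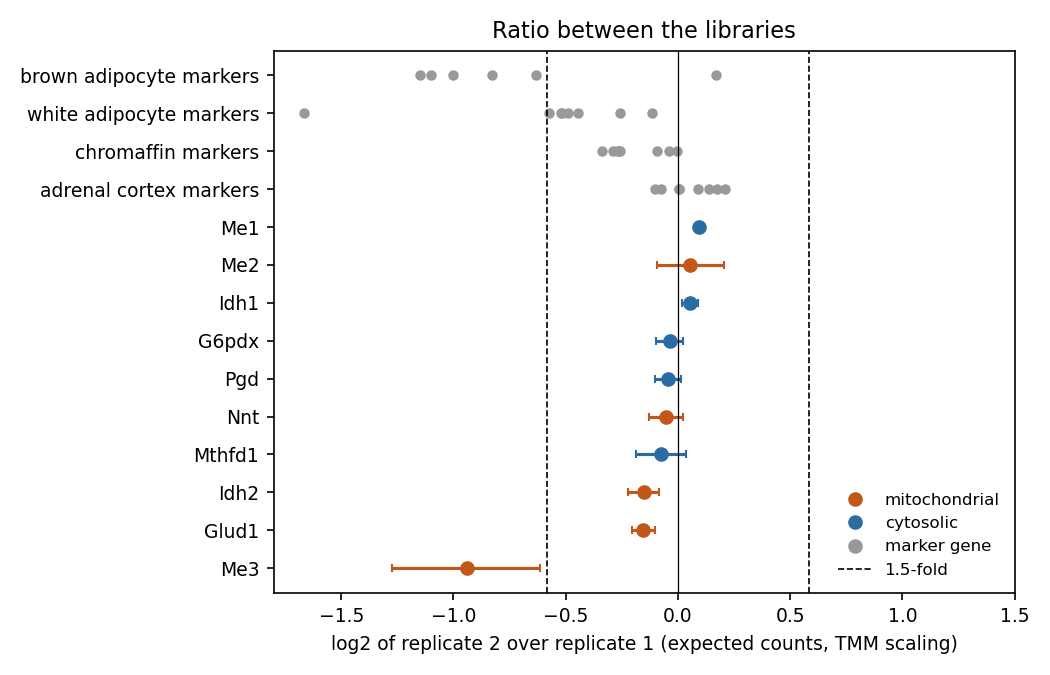
Log2 ratio of replicate 2 over replicate 1 from expected counts for each member, with 95% counting intervals, and for marker genes of 4 cell types as grey points without intervals. Me3 at -0.94 is the only member beyond the dashed 1.5-fold lines, where 5 of 6 brown adipocyte markers also lie.

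Of the other pathway genes, most stayed within 1.5-fold. Of the 6 tested pentose phosphate genes outside the members none was called, with a median of -0.15, and neither NAD kinase was called, with a median of -0.08. Of 6 tested folate genes 1 was called lower, Shmt1, a cytosolic serine hydroxymethyltransferase with 985 and 645 counts, named after its value was seen. Of 9 NAD-linked and shuttle genes 1 was called lower, Idh3a at -0.66, and the list's median was -0.16. Among the cytosolic users of NADPH, Fasn, the fatty acid synthase, had 146 and 244 TPM and was called higher in replicate 2. The 3 mitochondrial users had a median of 0.00 and none was called.

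The quantifiers gave a different account of Nnt by identifier than by symbol. The identifier ENSMUSG00000025453.18 holds Nnt-201 to Nnt-205, and ENSMUSG00000116207.1 holds Nnt-206 alone, which runs from 119335528 to 119408952. Nnt-206 also has 17 exons and 835 codons, but it is 45 bases shorter at the 5′ end and 80 bases shorter at the 3′ end, and all its 3339 bases lie in Nnt-202. No stretch of 100 bases in Nnt-206 is absent from the other Nnt transcripts. Any read from Nnt-206 therefore also matches Nnt-202.

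In the alignment-based tables ENSMUSG00000025453.18 had 2843 and 2728 expected counts and the identifier of Nnt-206 had 1.07 and 0.51. The TPM bounds given there were wide, up to 5.45 and 6.34 TPM for Nnt-206 in replicates 1 and 2. For Nnt-202 they ran from 4.74 to 12.2 and from 5.20 to 12.5 TPM. In the read-based tables ENSMUSG00000025453.18 had 1339 and 1252 estimated counts and the identifier of Nnt-206 had 1748 and 1702. The methods thus placed the same Nnt reads on different identifiers. Summed by symbol, read-based TPM differed from alignment-based TPM by a centred log2 difference of -0.12 and -0.13 in replicates 1 and 2. For ENSMUSG00000025453.18 on its own it was -1.33 and -1.37.

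By symbol 0 of the 10 members differed by more than 2-fold the same way in both libraries between the methods, after centring on the median of protein-coding genes. Across the 15217 symbols compared, 1159 or 7.62% did. With the Nnt identifiers kept apart, both of them differed and none of the other members did. Without centring 3 of 10 members passed, where 30.9% of all symbols did. The read-based TPM of Nnt was 38.4 and 41.6, a mean of 40.0 ± 2.25, and Me1 had 988 and 1188. The ratio of the mitochondrial to the cytosolic sum, 0.200 ± 0.0260 from alignment-based TPM, was 0.183 from read-based TPM.

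Shares of Nnt transcripts followed the same division. In alignment-based TPM, Nnt-202 held 47.6% of Nnt in replicate 1 and 50.7% in replicate 2, and Nnt-201, which lacks exons 8 and 9, held 49.0% and 44.4%. Nnt-201 was the higher in replicate 1 and Nnt-202 in replicate 2, so neither led in both. In read-based TPM, Nnt-206 led with 56.8% and 57.9%, Nnt-202 held 35.8% and 37.1%, and Nnt-201 only 4.12% and 0.0759%. The annotated 17-exon transcripts Nnt-202 and Nnt-206 thus held the bulk of Nnt TPM by the read-based method and were about level with Nnt-201 by alignment. Exons missing from the reference genome have no value here, and the parental origin of the reads was not measured. Shares on these annotated transcripts are therefore not shares of RNA with or without the described deletion.

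For Nnt-201 this came to 1330 and 1152 expected counts against 118 and 2.07 estimated counts. Only 97 stretches of 100 bases are particular to Nnt-201, those across the joint of exons 7 and 10 printed above. Which share is closer to the amount of RNA without exons 8 and 9 was not tested, and reads over single joints were not analysed here. Nnt-203 held 1.51% and 2.91% by alignment and 1.36% and 2.61% by the read-based method. The retained-intron transcripts Nnt-204 and Nnt-205 held 0.562% and 0.674%, and 1.30% and 1.35%, by alignment. For these 3, which have 925, 1506 and 1139 stretches of their own, the methods lay close together.

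**Figure D5:**
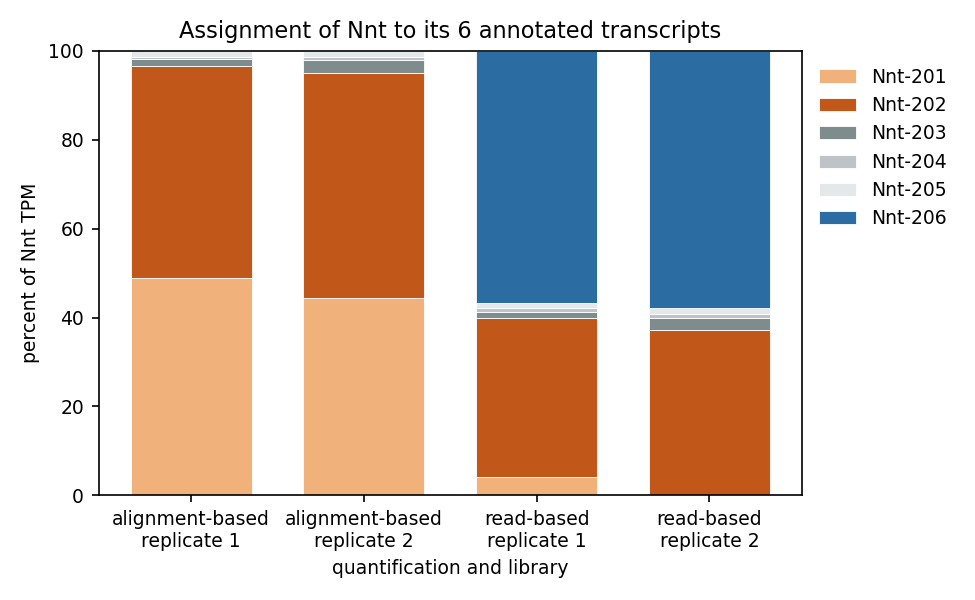
Percent of Nnt TPM on each of the 6 annotated transcripts, by library and by quantification method. Nnt-201 holds 49.0% and 44.4% by alignment and under 5% by the read-based method, where Nnt-206 holds 56.8% and 57.9%.

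Of the 10 members 2, Idh1 and Nnt, had another leading transcript by the other method, where 2730 of 11336 symbols with more than 1 transcript, 24.1%, did. Idh1-201 held 85.0 ± 2.37% of Idh1 by alignment and 4.40% by the read-based method, which placed 72.8 ± 2.63% on Idh1-203. Idh1-203 had 0 expected counts in both libraries and 11233 and 12235 estimated counts. Idh1-203 has no stretch of 100 bases that is absent from the other Idh1 transcripts, and Idh1-201 has 193.

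The other 8 kept their leading transcript, though some shares moved. Me1-201 held 92.9% by alignment and 73.3% by the read-based method, Pgd-201 95.1% and 77.8%, and Glud1-201 69.6% and 56.0%. Idh2-201 held 96.2% and 95.7%, G6pdx-201 97.3% and 89.3%, Mthfd1-201 89.9% and 96.0% and Me2-201 87.9% and 87.5%. Me3 stood out in kind. Its leading transcript Me3-201 is annotated as a processed transcript and held 53.7% by alignment and 49.6% by the read-based method. In the same order the retained-intron Me3-203 held 35.2% and 29.4%, and the protein-coding Me3-202 2.77% and 5.37%. Most of the Me3 TPM was thus on transcripts annotated without a coding frame.

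Reads that fit more than 1 gene touch some members. Of the 100-base stretches of Me1, 12.3% also occur in 2 other annotated genes, which had 2233 and 2231 expected counts together against 55739 and 59088 for Me1. The share was 2.84% for Glud1, 0.650% for Me3 and 0.195% for G6pdx, and 0 for Nnt, Pgd, Me2, Idh1, Idh2 and Mthfd1. The 16 genes that share stretches with Me3 had 4702 and 4714 expected counts together, against 228 and 118 for Me3 itself. Those that share with Glud1 had 10 and 8.48. How far shared reads enter the Me3 counts was not tested. G6pdx, at chrX:74409483-74429194, overlaps Ikbkg on the opposite strand, which had 3034 and 3476 counts. The strand setting of the counting was not given in the sources used here, so the G6pdx and Ikbkg values are uncertain where they overlap. The genes overlapping Me1, Me3, Idh2 and Mthfd1 had at most 68 counts in a library.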

How the data were processed

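The build was mm10 per the labels, and the deposited notes name annotation M21. Aligner and quantifier are not given in the sources used here. Per the file headers, the alignment-based gene and transcript tables that the authors made give expected counts and TPM. Their read-based transcript tables give estimated counts with TPM. The deposited totals were 35315387 and 33397838 estimated counts. Identifiers that share a symbol were summed. Library ratios used expected counts plus 0.5 over TMM sizes (edgeR 4.0.16, R 4.3.3), at a mean of 100 or more counts, with exact Clopper-Pearson 95% intervals (scipy 1.17.1). DESeq2 1.42.0 size factors, total counts and TPM ratios were alternatives. Method differences were log2 of TPM plus 0.01 over symbols at 1 TPM or more by either method, centred on protein-coding genes. Leading transcripts are those of highest mean TPM, among symbols at 1 TPM or more by both methods. The library-ratio calls, with planted changes larger than the 1.5-fold limit, and the comparison of leading transcripts were tested on simulated data. The other procedures were not. Named genes are all members, their listed relatives and overlapping genes, and genes among the 4 of highest mean TPM in each other list. Ppargc1a was named outside this rule, as the brown adipocyte marker not called lower. Members and lists were chosen with earlier results of these data known. FPKM and signal tracks were not analysed here. The value of 1 gene in the list of cytosolic NADPH users, and that list's counts, are not reported here.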

Additional observations from a re-analysis of the deposited data

How the results depend on the processing

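With 2 libraries there is no test, and depth limits Me3 most, at 228 and 118 counts. No paired analysis was possible because there is 1 group. The mitochondrial to cytosolic ratio, 0.200, was 0.115 without Glud1, 0.104 without Me2 and Glud1, 0.254 without Idh1 and, chosen after seeing the data, 0.538 without Me1. Leaving out a replicate gave 0.182 to 0.219. The 1 member past 1.5-fold became 0 at 2-fold. The 0 members past 2-fold between methods became 3 without centring (30.9% of all symbols) and, chosen after seeing the data, 2 with each identifier on its own (7.69% of identifiers). All 10 mean levels were higher in read-based TPM and in TPM over nuclear protein-coding genes, where 9 in place of 8 members reached 10 TPM. These are shifts of scale and not particular to the members. After centring on the median of protein-coding genes, the log2 difference of read-based TPM ran from -0.19 for Me2 to 0.28 for Pgd. The Nnt-202 share, 49.2%, was 36.5% read-based and 52.1% of expected counts, and 47.6 to 50.7% leaving out a replicate. The 2 members with another leader became 1 with each identifier on its own, chosen after seeing the data (24.1% of identifiers). Over all genes, 2.64% passed 1.5-fold; 12.2% passed a lower fold limit, 0.443% passed 2-fold, and 14.8% and 6.36% passed 1.5-fold with no minimum and a minimum of 20 counts.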
